A study of Sus scrofa with 20 samples.

Results

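The miR-181 family was followed in PBMCs of pigs (peripheral blood mononuclear cells, mainly lymphocytes with some monocytes, isolated on a density gradient) before and after intracerebral hemorrhage (ICH). The 8 members were chosen by name from the deposited counts against human miRNAs, which list 608 entries: hsa-miR-181a-5p, hsa-miR-181a-3p, hsa-miR-181a-2-3p, hsa-miR-181b-5p and hsa-miR-181b-3p (the a/b members), and hsa-miR-181c-5p, hsa-miR-181c-3p and hsa-miR-181d-5p (the c/d members). The prefix for human is left out from here on. The counts against pig miRNAs, with 284 entries, name 4 of them and served as a check. One group held 10 ICH libraries, from blood drawn 6 h after 2 to 4 mL of the animal's own blood had been injected into the frontal white matter through a burr hole. The other held 10 Control libraries, from blood drawn before the injection. All animals were female American Yorkshire pigs with an age of 80 to 90 days, weighing 36 to 41 kg. Libraries with the same replicate number, 1 to 10 in the sample titles, were taken as the first and second draws of an animal. No label names the animal. With no sham-operated group analysed here, the hemorrhage cannot be told apart from surgery and the passage of time.

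MicroRNAs are short RNAs that lower the output of mRNAs whose sites match their seed, near the 5′ end. A hairpin gives an arm from each side, 5p and 3p, and usually 1 arm is kept in far larger amounts. The miR-181 5p arms share their seed, so they can act on the same mRNAs, and in mice miR-181a raises the sensitivity of developing T cells to antigen by lowering phosphatases that dampen T cell receptor signalling. miR-181b is also known in mice to dampen NF-kB signalling in the vessel wall.

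The family comes from 3 pairs of neighbouring genes, placed here from an NCBI RefSeq table of the pig build Sscrofa11.1. MIR181B-1 (chromosome 10, 21696492 to 21696571) and MIR181A-1 (21696653 to 21696756) lie 81 bases apart inside the interval of LOC110255652. MIR181A-2 (chromosome 1, 265497249 to 265497328) and MIR181B-2 (265499111 to 265499196) lie inside NR6A1, a gene for a nuclear receptor. MIR181D (chromosome 2, 65279773 to 65279852) and MIR181C (65279950 to 65280036) lie 97 bases apart, inside no other annotated gene. The 5p sequence of miR-181a, and likewise of miR-181b, is made from both of its loci, so the counts do not say which locus a 5p read came from. The arm miR-181a-3p comes from the first miR-181a hairpin and miR-181a-2-3p from the second.

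The libraries held 919313 to 2177834 human-reference reads. All 8 members passed the filter on low counts, and the scarcest, miR-181c-5p, had 20 to 104 reads per library. The 5p members are so alike in sequence that reads with a mismatch could be split between them in more than 1 way. In both tables the split was nearly the same: the human and pig entries differed by at most 2 reads in any library for miR-181a and miR-181b, by at most 1 for miR-181d, and in no library for miR-181c. The 2 tables therefore hold nearly the same miR-181 reads and are not independent. They differ in their other entries, which enter the scaling.

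Before any comparison over time, the members spanned a wide range. miR-181a-5p averaged 12028 ± 1793 CPM in ICH and 14972 ± 1779 CPM in Control (SD, n = 10 each; CPM, the count divided by a library size adjusted by the TMM method), and ranked 16 of 245 tested miRNAs by mean level. miR-181b-5p followed at 2906 ± 314 CPM in ICH and 3257 ± 453 CPM in Control. The order of the members given here is one of reads, not of molecules. In all 20 libraries miR-181a-5p had more reads than miR-181b-5p, and miR-181b-5p more than miR-181d-5p.

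The remaining 6 arms were scarce, and several neighbours in the order were not separated. miR-181d-5p averaged 279 ± 62.6 CPM in ICH and 198 ± 51.7 CPM in Control, and miR-181a-3p averaged 145 ± 33.5 CPM in ICH and 167 ± 42.4 CPM in Control. miR-181d-5p had more reads than miR-181a-3p in 9 of 10 ICH libraries and in 5 of 10 Control libraries. miR-181b-3p had more reads than miR-181c-3p in 2 of 10 ICH libraries and in 7 of 10 Control libraries. Neither of these pairs kept 1 order in every library, and miR-181a-3p lay above miR-181b-3p in 10 of 10 ICH and 9 of 10 Control libraries.

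Together the 8 members took 1.10% to 1.88% of human-reference reads in ICH libraries (median 1.55%) and 1.45% to 2.65% in Control libraries (median 1.87%). The share was lower after ICH in 10 of 10 pairs. Most of these reads were miR-181a-5p, which made up a median of 78.0% of the 5p reads of the family in ICH and 80.4% in Control. In these bulk samples, fewer cells of a type and less RNA per cell cannot be told apart.

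The members that passed the test between the draws differed in direction. After ICH miR-181a-5p fell to 0.800 of its level before, while miR-181d-5p rose 1.42-fold and miR-181c-3p 1.33-fold. No member's ICH and Control ranges were fully apart. Of the 5 a/b members 1 fell and 4 did not pass the test, and of the 3 c/d members 2 rose and 1 did not pass (edgeR quasi-likelihood test with the replicate number as a block, Benjamini-Hochberg adjustment over all 245 miRNAs, threshold 0.05). Over all miRNAs tested, 13.1% rose, 6.12% fell and 19.2% did either by the same rule. The median log2 fold change was -0.20 for the a/b members and 0.41 for the c/d members, beside 0.03 for all 245 miRNAs. Without the block, 0 of the 8 members passed by edgeR. There miR-181a-5p, miR-181d-5p and miR-181c-3p had adjusted p values of 0.0773, 0.0773 and 0.0924 and unadjusted values of 0.0041, 0.00402 and 0.00658, and the other 5 members had unadjusted values over 0.05.

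**Figure D1:**
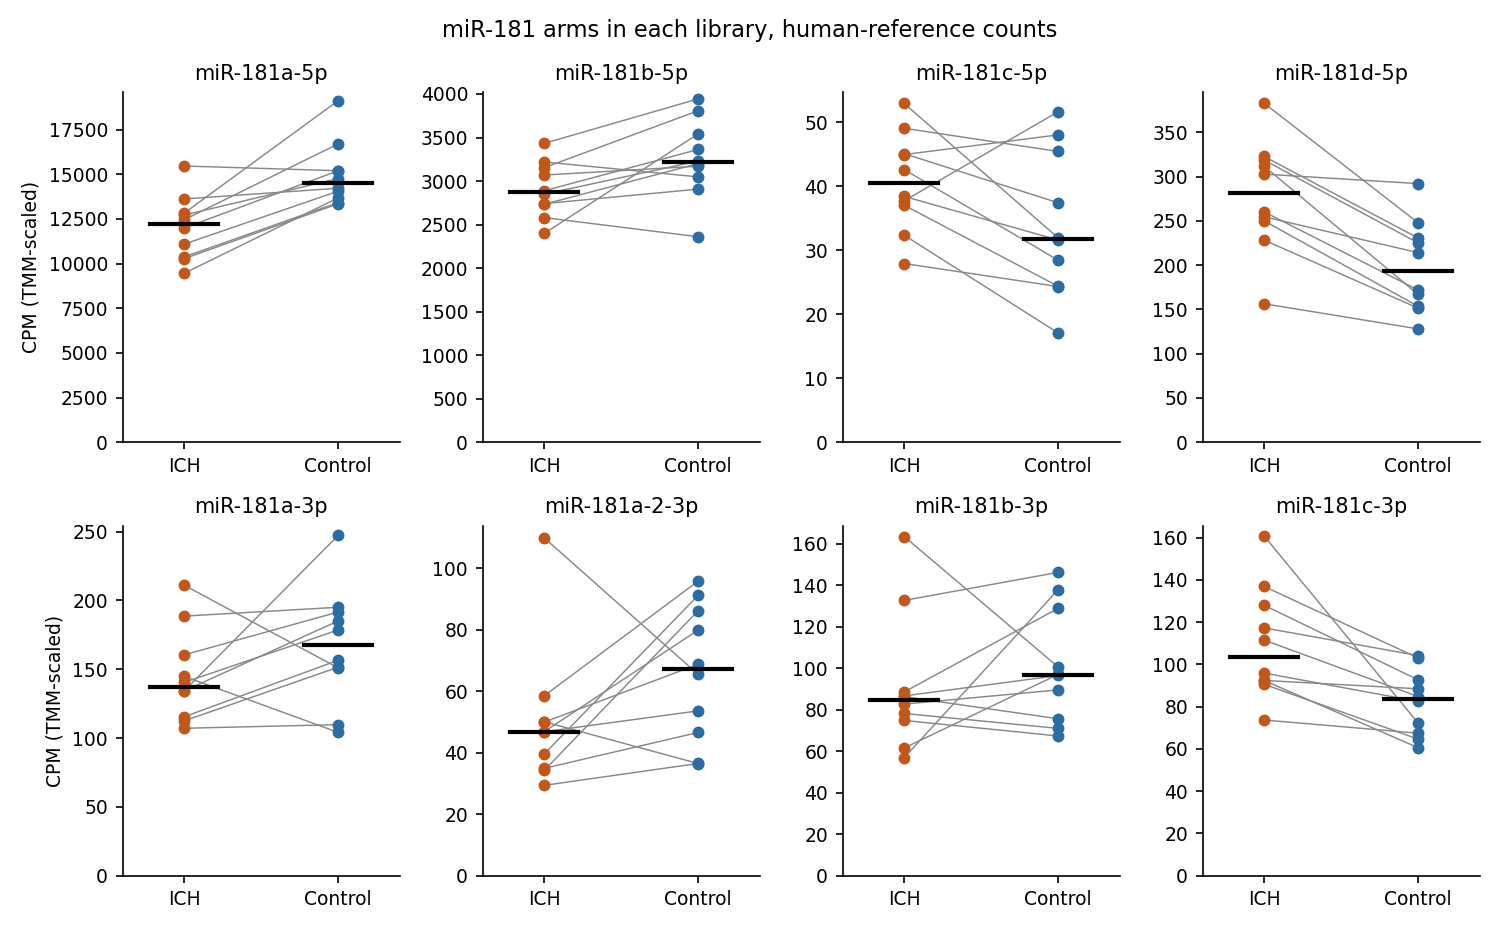
Level of each of the 8 miR-181 arms (CPM, TMM-scaled, linear axis from 0) in the 10 ICH and 10 Control libraries of the human-reference counts; grey lines join libraries with the same replicate number and black bars are medians. miR-181d-5p and miR-181c-3p were higher in ICH in all 10 pairs, and miR-181a-5p was lower in ICH in 9 of 10.

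miR-181a-5p ran from 9457 to 15464 CPM in ICH libraries (median 12225 CPM) and from 13349.9 to 19125 CPM in Control libraries (median 14492 CPM). In 8 of the 10 ICH libraries it was below the lowest Control library, and the groups overlapped through the highest ICH library, number 4, and 1 other. With the block, edgeR gave a log2 fold change of -0.32 ± 0.083 (SE; adjusted p = 0.00856). It was lower in 9 of 10 pairs, while 15.1% of all tested miRNAs were lower in at least 8 and 2.45% in all 10. Number 4 was the exception, with a within-pair change of 0.02 on the log2 scale. Leaving out each replicate number in turn gave log2 fold changes of -0.41 to -0.31, with a largest adjusted p of 0.0203.

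miR-181b-5p, made from the hairpins next to those of miR-181a, ran from 2398 to 3433 CPM in ICH (median 2869 CPM) and from 2359.9 to 3944 CPM in Control (median 3215 CPM). The groups overlapped over most of their range. The log2 fold change was -0.16 ± 0.085 (SE), lower in 8 of 10 pairs, and it did not pass the test (adjusted p = 0.210, edgeR with the block). In the pig-reference counts the same reads gave -0.22 ± 0.079 (SE; adjusted p = 0.0490), just past the threshold and lower in 9 of 10 pairs, where 22.9% of 179 miRNAs were lower in at least 8 and 3.91% in all 10. That pig-reference call was lost when any of 9 of the 10 replicate numbers was left out (adjusted p up to 0.143), and in 7 of 9 other alternatives.

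The 3p arms of the a/b hairpins are usually the discarded strands. miR-181a-3p ran from 107 to 211 CPM in ICH (median 137 CPM) and from 104 to 247 CPM in Control (median 168 CPM), with a log2 fold change of -0.20 ± 0.12 (SE; adjusted p = 0.280, edgeR with the block). miR-181b-3p ran from 56.9 to 164 CPM in ICH (median 84.5 CPM) and from 67.4 to 146 CPM in Control (median 96.8 CPM), with -0.16 ± 0.14 (adjusted p = 0.511). Neither passed, and both groups of both arms overlapped. They were lower after ICH in 8 and 6 of 10 pairs, against 15.1% of all tested miRNAs lower in at least 8.

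miR-181a-2-3p, the arm that marks the second miR-181a locus, ran from 29.4 to 110.0 CPM in ICH (median 46.9 CPM) and from 36.5 to 95.9 CPM in Control (median 67.2 CPM). The high ICH value was that of number 1, and the other 9 ICH libraries lay inside or below the Control range. At -0.43 ± 0.17 on the log2 scale (SE; edgeR with the block, adjusted p = 0.0704), it did not pass. It was lower in 8 of 10 pairs, with numbers 1 and 8 the exceptions. With a replicate number left out, it passed the threshold in 2 of 10 cases, and it passed in 6 of 9 other alternatives. Without number 1 it was -0.62 (adjusted p = 0.00591, edgeR with the block).

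miR-181d-5p ran from 156 to 383 CPM in ICH (median 281 CPM) and from 128 to 292 CPM in Control (median 193 CPM). In 5 of the 10 ICH libraries it was above the highest Control library, while number 4 was the lowest library in both groups. By edgeR with the block it rose by 0.50 ± 0.098 (log2 scale, SE), with an adjusted p of 0.000854. It was higher in 10 of 10 pairs, as were 3.67% of all tested miRNAs. Within pairs the change ran from 0.05 in number 8 to 0.90 in number 6 on the log2 scale. The largest adjusted p with a replicate number left out was 0.0065. The pig-reference counts gave 0.44 ± 0.092 (SE; adjusted p = 0.00245) and 10 of 10 pairs higher, as were 3.35% of miRNAs there. By the adjusted p, 11.7% of the 179 pig-reference miRNAs rose, 10.1% fell and 21.8% did either. The pig-reference entry for miR-181a gave -0.39 ± 0.080 (SE; adjusted p = 0.00245) and that for miR-181c gave 0.22 ± 0.14 (adjusted p = 0.263).

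miR-181c-5p, from the hairpin next to miR-181d, was the scarcest member. It ran from 27.9 to 52.9 CPM in ICH (median 40.5 CPM) and from 17.1 to 51.6 CPM in Control (median 31.7 CPM). The lowest 3 Control libraries lay below every ICH library, and the highest ICH library alone lay above every Control library. The log2 fold change was 0.29 ± 0.14 (SE, 95% interval -0.01 to 0.58; adjusted p = 0.177, edgeR with the block) and it was higher in 8 of 10 pairs, while 24.9% of all tested miRNAs (and 18.4% of those in the pig-reference counts) were higher in at least 8. The interval includes 0.

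miR-181c-3p, the other arm of that hairpin, had more reads than miR-181c-5p. It ran from 73.7 to 161 CPM in ICH (median 104 CPM) and from 60.6 to 104 CPM in Control (median 83.6 CPM). By edgeR with the block its log2 rise was 0.41 ± 0.11 (SE), with an adjusted p of 0.0125, and it was higher in 10 of 10 pairs. In 5 of the 10 ICH libraries it was above the highest Control library. The largest within-pair change was 1.14, in number 1. Without number 1, 6 or 9 the call was lost, with adjusted p values of 0.0764, 0.0608 and 0.0678. It was also lost under library totals in place of TMM (0.30, adjusted p = 0.123) and under upper-quartile scaling (0.29, adjusted p = 0.0883). The call was lost as well with no filter on low counts (adjusted p = 0.0637) and with limma on log2(RPM + 1) (adjusted p = 0.177), so it held in 4 of 9 alternatives. Library totals and upper-quartile scaling moved the median of all 245 miRNAs by -0.11 and -0.12 on the log2 scale, and under each scaling tried every a/b member stayed below 0 and every c/d member above 0.

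**Figure D2:**
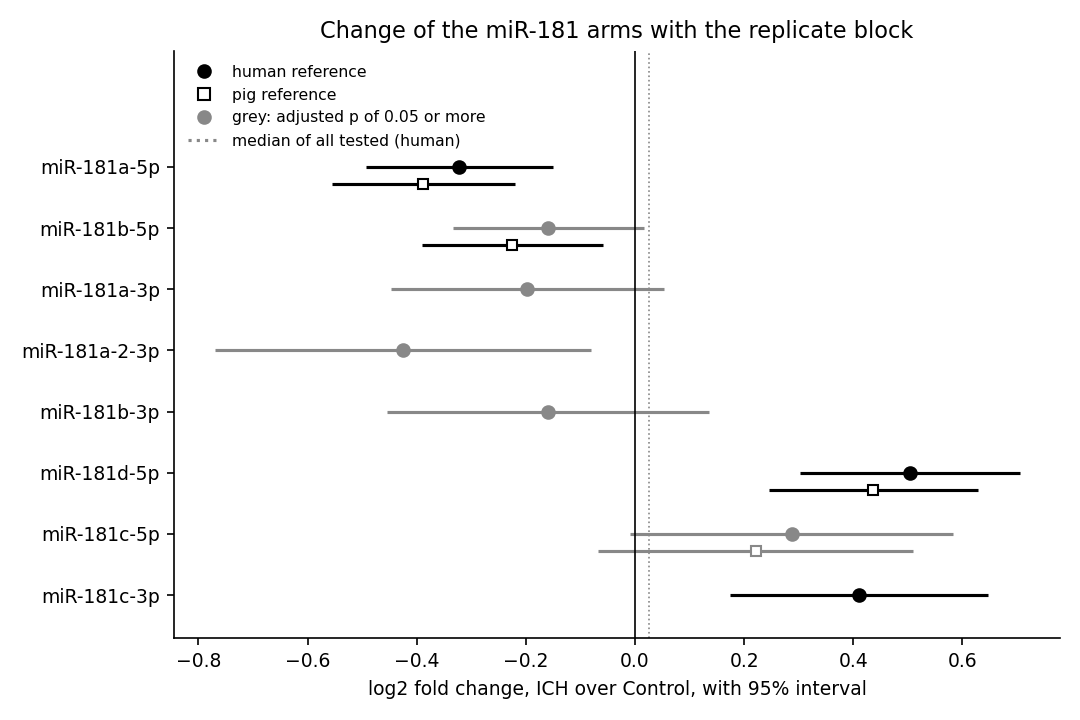
Log2 fold change of each miR-181 arm, ICH over Control, with its 95% interval from edgeR with the replicate number as a block; circles are the human-reference counts, open squares the pig-reference counts of the 4 arms named there, and grey marks did not pass an adjusted p of 0.05. All 5 a/b arms lie left of 0 and all 3 c/d arms right of it, and 3 human-reference arms pass.

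**Figure D3:**
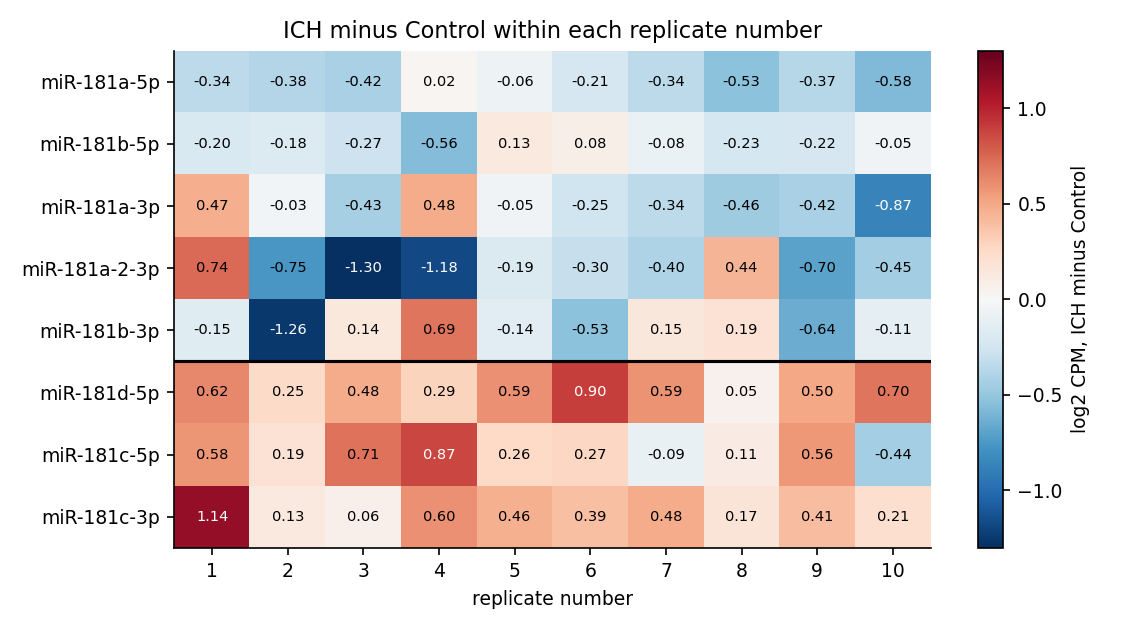
Change of log2 CPM within each replicate number (columns), ICH minus Control, for the 8 arms (rows), with the a/b arms above the black line and the c/d arms below it; red is higher in ICH and blue lower. miR-181d-5p and miR-181c-3p are above 0 in every column, and in number 4 miR-181a-5p changed by 0.02 and miR-181b-5p by -0.56.

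The c/d members were then set against the a/b members inside each library, which needs no scaling between libraries. Relative to miR-181a-5p, miR-181d-5p rose 1.77-fold after ICH and miR-181c-5p 1.55-fold. Relative to miR-181b-5p, miR-181d-5p rose 1.58-fold. These ratios are built from the same reads as the member changes above and are not independent of them. A fall of miR-181a-5p raises the ratios set over it, and miR-181c-5p alone did not pass (adjusted p = 0.177, edgeR with the block). The measure was the log2 ratio of 2 read counts, each with 0.5 added. Its change within pairs was tested by an exact two-sided sign-flip permutation test, with Benjamini-Hochberg adjustment over all 10 ratios computed.

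The log2 ratio of miR-181d-5p to miR-181a-5p was -5.45 ± 0.52 in ICH and -6.27 ± 0.47 in Control (SD, n = 10 each). Its change was 0.82 ± 0.093 (SE, 95% interval 0.61 to 1.03), and it was higher in 10 of 10 pairs (exact p = 0.00195, the smallest the test can give; adjusted p = 0.00651). The smallest change, 0.26, was that of number 4, and the largest, 1.28, that of number 10. miR-181d-5p to miR-181b-5p changed by 0.66 ± 0.062 (SE), with all 10 pairs higher, from 0.28 in number 8 to 0.85 in number 4 (adjusted p = 0.00651, exact sign-flip test). miR-181c-5p to miR-181a-5p changed by 0.63 ± 0.11 (SE), also with 10 of 10 pairs higher (adjusted p = 0.00651, exact sign-flip test). These 3 ratios passed in each alternative tried.

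The fourth ratio of a c/d to an a/b 5p arm, miR-181c-5p to miR-181b-5p, changed by 0.47 ± 0.17 (SE) and was higher in 8 of 10 pairs (exact sign-flip p = 0.0273, adjusted p = 0.0684). It ran from -0.40 in number 10 to 1.46 in number 4. Without number 10 it was 0.57 and passed (adjusted p = 0.0195, exact sign-flip test), and it also passed in the filtered counts. In the pig-reference counts it passed too, but on nearly the same reads. The adjustment there covered only the ratios of 5p arms, fewer than the 10 of the main test.

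Summed over the arms, there were 34.6 to 94.7 a/b 5p reads for each c/d 5p read in ICH (median 46.0) and 50.0 to 129 in Control (median 78.7), and the number was lower after ICH in 10 of 10 pairs. The c/d 5p arms made up a median of 2.13% of the 5p reads of the family in ICH and 1.25% in Control. The c/d arms therefore stayed a small part of the family in both draws.

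Ratios within the a/b members and within the c/d members were compared in the same way. The log2 ratio of miR-181b-5p to miR-181a-5p changed by 0.16 ± 0.091 (SE, 95% interval -0.04 to 0.37; exact sign-flip p = 0.104, adjusted p = 0.207). It was higher in 9 of 10 pairs, by 0.14 to 0.53, and lower by 0.59 in number 4. Without number 4 it was 0.25 ± 0.041 (adjusted p = 0.00977, exact sign-flip test), so that pair decided the call. The log2 ratio of miR-181d-5p to miR-181c-5p changed by 0.19 ± 0.16 (SE, 95% interval -0.18 to 0.56; adjusted p = 0.391, exact sign-flip test) and was higher in 6 of 10 pairs.

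**Figure D4:**
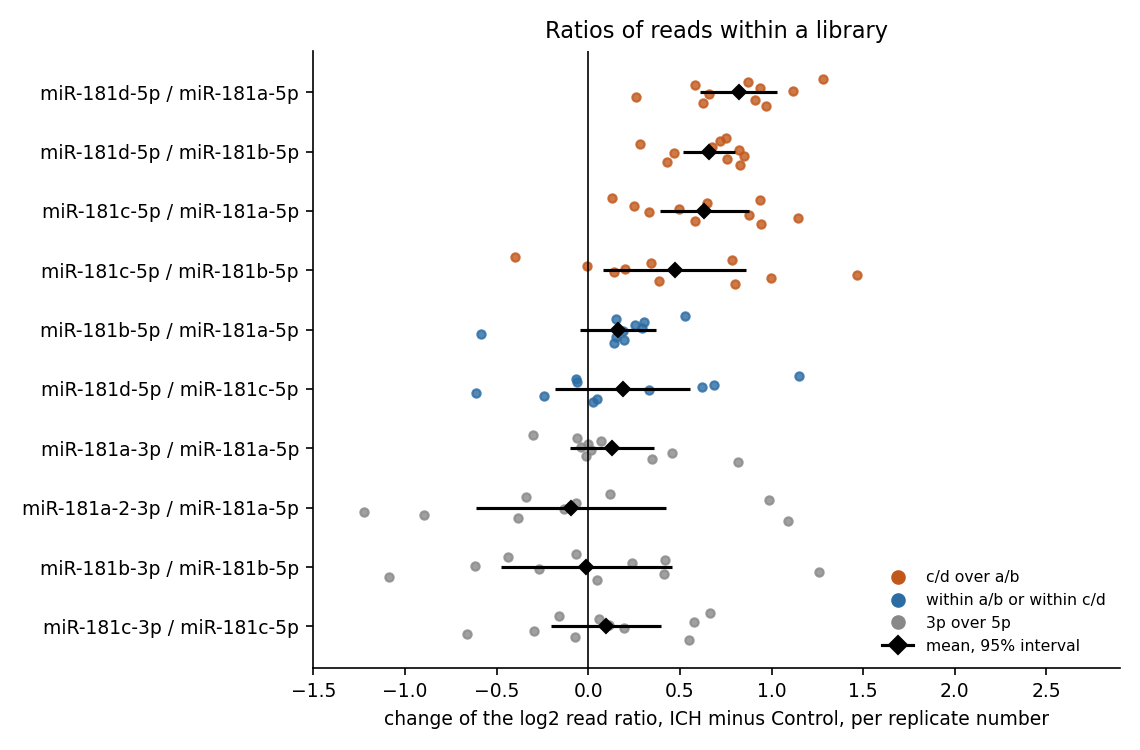
Change of 10 log2 read ratios within a library, ICH minus Control, with 1 point per replicate number and the mean with its 95% interval in black; orange marks c/d over a/b arms, blue ratios within a/b or within c/d, and grey the 3p over the 5p arm. In the top 3 rows all 10 points lie right of 0, and in the 4 grey rows points lie on both sides.

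The 3p and 5p arms were compared last. For miR-181a and miR-181b nearly all reads were 5p. The median 3p share was 1.54% in ICH and 1.55% in Control for miR-181a (both of its 3p arms). For miR-181b it was 2.64% in ICH and 2.76% in Control, counting miR-181b-3p alone. The scarce miR-181b-2-3p, with 38 reads in all ICH and 43 in all Control libraries, was left out. The 5p reads of miR-181a and miR-181b come from both of their loci. Their shares and ratios are therefore not those of a single hairpin, and only those of miR-181c compare the arms of a hairpin. In miR-181c the balance was the other way round, with a 3p share of 63.6% to 81.3% in ICH (median 73.2%) and 57.4% to 78.4% in Control (median 73.2%). The 5p side rests on 20 to 104 miR-181c-5p reads per library, and how reads matching several members were counted is not stated. In the authors' filtered counts, 14.2% of the pooled reads of miR-181c-5p and 8.04% of those of miR-181c-3p were removed. The change of the log2 ratio of 3p to 5p was 0.13 ± 0.10 for miR-181a-3p, -0.09 ± 0.23 for miR-181a-2-3p, -0.01 ± 0.21 for miR-181b-3p and 0.10 ± 0.13 for miR-181c-3p (SE, n = 10 pairs each). None of the 4 passed (exact sign-flip test, adjusted p of 0.391 to 0.947). Their 95% intervals were -0.10 to 0.36 for miR-181a-3p, -0.61 to 0.42 for miR-181a-2-3p, -0.48 to 0.46 for miR-181b-3p and -0.20 to 0.40 for miR-181c-3p.

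The 3p arms that mark the miR-181a loci differed among libraries. miR-181a-2-3p was 15.5% to 43.2% of the reads of both miR-181a 3p arms in ICH (median 25.0%) and 16.01% to 42.1% in Control (median 28.6%), lower after ICH in 7 of 10 pairs. A further 2 names of the family, which the choice of members did not include, were too scarce to test. The arm of the second miR-181b hairpin, miR-181b-2-3p, had 38 reads in all ICH libraries and 43 in all Control libraries, and miR-181d-3p had 1 read in ICH and 0 in Control.

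Other miRNAs of lymphocyte development and activation moved in both directions over the same interval. Of 16 tested from a list of 18, 4 fell, 1 rose and 11 did not pass (median log2 fold change -0.11, beside 0.03 for all tested). Over all tested miRNAs, 6.12% fell and 13.1% rose by the same rule. The pair with the smallest p were miR-182-5p, which is induced in activated helper T cells of mice and had a log2 fold change of 0.62 ± 0.11 (SE, adjusted p of 0.000415), and miR-29a-3p, which restrains interferon gamma production in mouse T cells and fell by 0.42 ± 0.092 (adjusted p = 0.00209; edgeR with the block). The summed level of the list was 57971 to 69987 CPM in ICH and 58363 to 80101 CPM in Control, and higher in ICH in 2 of 10 pairs. The defining marker miR-150-5p had a median of 7797 CPM in ICH and 10327 CPM in Control.

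Lists of markers of other blood cells were set beside the family, where 13.1% of all tested miRNAs rose and 6.12% fell. In the myeloid list 3 of 7 rose, 0 fell and 4 did not pass, and its summed level of 22072 to 24967 CPM in ICH and 19189 to 22189 CPM in Control was higher in 10 of 10 pairs. Those with the smallest p were miR-223-5p (log2 fold change 0.82 ± 0.12) and miR-27a-5p (0.73 ± 0.11). In the red cell list miR-486-5p (0.63 ± 0.13) and also miR-144-3p (0.47 ± 0.14) rose, 2 of 5, and 3 did not pass. Its summed level was 2883 to 4823 CPM in ICH and 3250 to 6135 CPM in Control, and higher in ICH in 3 of 10 pairs. Most of that sum was miR-363-3p (mean 3510 CPM in ICH and 3941 CPM in Control), with a log2 fold change of -0.16. The other listed red cell members had log2 fold changes of 0.47 to 0.64. In the platelet list 1 of 5 tested rose, miR-126-3p (0.56 ± 0.10), and the second by p, miR-151a-3p, had -0.20 ± 0.092. The listed miR-151a-5p was not counted, because its only entry is marked as joined names. That entry fell, with -0.38 ± 0.11 (SE, adjusted p = 0.0187, edgeR with the block). It was lower in 10 of 10 pairs, as were 2.45% of all tested miRNAs. The platelet sum was 44654 to 58116 CPM in ICH and 41661 to 59396 CPM in Control, and higher in ICH in 6 of 10 pairs. Most of it was miR-191-5p (mean 45353 CPM in ICH and 44886 CPM in Control). The median log2 fold change was 0.22 in the myeloid list, 0.51 in the red cell list and 0.02 in the platelet list, beside 0.03 for all tested. The defining markers were at 0 in no library: medians in ICH and Control were 1730 and 1216 CPM for miR-223-3p, 358 and 205 CPM for miR-451a, and 442 and 304 CPM for miR-126-3p. The part of these cells in the miR-181 changes was not tested.

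The 4 5p arms also differed in which miRNAs they resembled. By Pearson's r of log2 CPM over the 20 libraries, taken as a description, the closest of 237 others to miR-181a-5p were miR-29a-3p (r = 0.83), miR-19b-3p (r = 0.72) and miR-363-3p (r = 0.71). For miR-181b-5p they were miR-92b-3p (r = 0.77), miR-222-3p (r = 0.68) and miR-92a-1-5p (r = 0.62). For miR-181d-5p they were miR-10a-5p (r = 0.87), miR-126-3p (r = 0.85) and miR-486-5p (r = 0.83), and for miR-181c-5p they were miR-144-3p (r = 0.79), miR-320a (r = 0.72) and miR-451a (r = 0.70). By the pairing used the libraries share animals, they also share a scaling factor, and the group difference enters each r. Among the 5p arms, r was 0.20 for miR-181a-5p with miR-181b-5p and 0.35 for miR-181c-5p with miR-181d-5p. Between an a/b and a c/d 5p arm it was -0.14 for miR-181a-5p with miR-181c-5p, -0.71 for miR-181a-5p with miR-181d-5p, -0.42 for miR-181b-5p with miR-181c-5p and 0.16 for miR-181b-5p with miR-181d-5p. For a 5p arm and a 3p arm of the same name, r was 0.66 for miR-181a-5p with miR-181a-3p, -0.33 for miR-181b-5p with miR-181b-3p and 0.49 for miR-181c-5p with miR-181c-3p. The group difference does not enter r over the within-pair changes of log2 CPM (10 pairs). There it was -0.12 for miR-181a-5p with miR-181b-5p and -0.20 for miR-181c-5p with miR-181d-5p. For miR-181a-5p it was 0.55 with miR-181c-5p and 0.12 with miR-181d-5p, and for miR-181b-5p -0.60 and 0.63. None of the 6 passed (permutation test, Benjamini-Hochberg adjusted p of 0.187 to 0.751).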

How the data were processed

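Small RNA libraries were made from PBMC total RNA with the mirVana and NEBNext kits, per the labels' protocols. The authors deposited whole-number read counts per miRNA, unfiltered (used here) and filtered. They also deposited RPM values, which on checking equalled the filtered counts rescaled to a common library total, to within 0.005 RPM. Bowtie, FastQC and bcl2fastq are named, per the submitters' processing notes. How the authors counted reads that match several miRNAs, and how they filtered, is not stated in the sources used. The filter removed 0.295% of the pooled reads of miR-181a-5p and 14.2% of those of miR-181c-5p.

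Tests on counts used edgeR 4.0.16 under R 4.3.3, with TMM scaling, filterByExpr, a robust quasi-likelihood fit and the replicate number as a block, over 245 human-reference and 179 pig-reference miRNAs. The F statistic gave the SE and interval of each log2 fold change. Within-pair log2 CPM used a prior count of 2. Ratio tests used scipy 1.17.1, with intervals of mean changes from the t distribution; figures used matplotlib 3.10.9. Alternatives used limma 3.58.1 and DESeq2 1.42.0.

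The design text describes a second draw after the first. Same-numbered libraries deviated together from their group means in all 10 pairs (correlations of 0.146 to 0.672 over human-reference miRNAs, median between different numbers -0.071), so the numbers were taken as pairs. For 7 of the 10 numbers, each library was the closest match of the other. No label names the animal of a library. P values cover the spread of the change between these 10 pairs. No 2 libraries of a group agreed within sampling noise. The sample descriptions name 1 lane for all libraries and no other batch. Reads carry no molecular identifiers and are not independent molecules. On counts simulated from the human-reference fit (20 simulations, 40 changed of 245), 82.5% of 1.5-fold changes (94.2% for miRNAs with a mean of at least 30 reads) and 98.9% of 2-fold changes were recovered, with 0.822% of unchanged miRNAs called. Every member's change was smaller than these, the largest being 1.42-fold for miR-181d-5p. The simulation therefore does not give the recovery of changes of the members' size.

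The members, lists and tests were chosen with earlier results of these data known. Named miRNAs were all members, the 3 most like each 5p arm, and the 2 with the smallest p in each list; those named with defining markers were fixed with the lists. List names were matched exactly, and 2 platelet names had no entry of their own, miR-151a-5p among them. That miRNA and the most abundant of the red cell and platelet lists were named as well. Mature sequences were not used here.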

Additional observations from a re-analysis of the deposited data

Results flagged for a closer look

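In 56 groups of 10 libraries (member levels, ratios and shares), 2 held an extreme library whose gap to the next one, as a part of the whole range, passed Dixon's 95% critical value. Chance alone gives about 1 such group in 20. ICH number 1 was high for miR-181a-2-3p, at 6.80 log2 CPM, where the remaining ICH libraries lay between 4.95 and 5.91. ICH number 4 was low for the log2 ratio of miR-181d-5p to miR-181a-5p, at -6.63, where the remaining ICH libraries lay between -5.71 and -4.85. In that library miR-181a-5p was the highest and miR-181d-5p the lowest of the ICH group. Without number 4 the change of that ratio was 0.88, against 0.82 with it.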

How the results depend on the processing

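The replicate block moved the counts of calls most: with no replicate block 9 of 245 human-reference miRNAs were called, against 47 with it, and 0 of 179 pig-reference miRNAs, against 39 (edgeR). Without the block, 45 and 35 had an unadjusted p under 0.05 by edgeR, and DESeq2, an alternative added after seeing the data, called 13 and 11; with the block DESeq2 called 50 and 46. The split of human-reference calls into higher and lower was 32 and 15, became 15 and 24 under library totals, 18 and 29 under upper-quartile scaling, 28 and 19 under DESeq2 size factors and 17 and 22 with limma on log2(RPM + 1). In the pig-reference counts the split was 21 and 18, and 35 and 9 under upper-quartile scaling. With 1 replicate number left out, the calls ran from 32 to 61 and from 27 to 59, the highest without number 4.

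Of the member results under the other alternatives, 85 kept their direction and their side of the threshold, 16 lost the call, 7 gained it and 0 changed direction. The calls of miR-181a-5p and miR-181d-5p in both tables were lost only with no replicate block. The ratio of miR-181c-5p to miR-181b-5p passed in the filtered counts (0.51) and in the pig-reference counts (0.47). With a number left out, that ratio ran from 0.36 to 0.57, miR-181b-5p to miR-181a-5p from 0.12 to 0.25, miR-181a-2-3p to miR-181a-5p from -0.23 to 0.031 and miR-181b-3p to miR-181b-5p from -0.15 to 0.11. The last 2 changed sign around a mean near 0 and passed in no alternative. With no replicate block, the ratios of miR-181d-5p and of miR-181c-5p to miR-181a-5p both had an adjusted p of 0.00973 by a two-sided permutation test. The cause of these shifts was not tested. The scarcest member, miR-181c-5p, had 20 reads in its lowest library; the part of depth in its result was not tested.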
